A study of Mus musculus with 6 samples.

Results

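The stretch of 250 kb on mouse chromosome 8 that begins at base 122400001 (GRCm38) holds Cyba, Mvd and Galns. It was described through its peaks of 5-hydroxymethylcytosine (5hmC), the base that TET enzymes make by oxidising 5-methylcytosine. Peaks of the 4 deposited lists that overlapped by 1 bp or more were merged into regions, and the 20 regions of this stretch, of 174070 in the genome, are its members. The stretch was chosen because 5hmC peaks near Cyba differed between the genotypes, so within it that contrast is given as a description with no test. The flanking 250 kb on each side, with 34 and 30 regions, were taken for comparison.

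The KO libraries (label Tet2-/-, 2 replicates) came from cultures given 200 nM 4-hydroxytamoxifen for 2 passages (4 days), and the flox libraries (label Tet2fl/fl, 2 replicates) from cultures given ethanol. Cells of both groups came from C57BL/6 Tet2fl/fl;CreER bone marrow enriched for Kit, carried a retrovirus for AML1-ETO, the fusion protein of a leukaemia translocation, with GFP, and were sorted at passage 5 for GFP and CD16/32 and against CD11b and Gr1, which mark mature myeloid cells. Drug and active Cre were present in KO cultures alone, and their effects and those of Tet2 loss cannot be told apart. The labels give neither the promoter that drives CreER nor whether the replicates of a group were grown apart. The spread between libraries, and every p-value, may therefore reflect technical variation alone. DNA peaks carry no transcript levels, and the sorted cell type was not checked against marker genes here.

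Cyba encodes the small membrane subunit of the NADPH oxidase, the complex with which phagocytes make superoxide. Mvd encodes mevalonate diphosphate decarboxylase, an enzyme on the path from mevalonate to isoprenoids and cholesterol. Galns encodes a lysosomal sulfatase that breaks down keratan sulfate and chondroitin sulfate and is lacking in a form of Morquio syndrome. In mammalian cells 5hmC lies mostly at CG dinucleotides, often in gene bodies and enhancers, and TET2 is an enzyme often lost by mutation in myeloid leukaemia.

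The lists held 116539 and 122101 peaks in KO replicates 1 and 2, against 118727 and 118522 peaks in flox replicates 1 and 2. These covered 110.3 and 111.1 Mb in KO and 113.3 and 110.3 Mb in flox. How many reads lay behind a list was unknown. Tet2 itself, taken with 5 kb at both ends, held 2432 and 2448 called bp in KO and 1981 and 3509 called bp in flox. Which part of Tet2 was excised is not in the labels, and its peaks are no check of the deletion. A base not under a peak fell short of the caller's threshold, which does not show that 5hmC was absent. In bulk cells, fewer cells with 5hmC and less 5hmC per cell cannot be told apart.

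Promoters are shown first because 3 of the 5 flox-only regions lie upstream of Cyba or over the promoters of Aprt and of a long non-coding RNA inside Mvd. Flox-only means a peak in each flox library and none in KO. Of the 14 protein-coding genes of the stretch, 10 had an entry in the RefSeq promoter table (GRCm38.p6), Cyba and Mvd among them. Each window runs from 250 bases before to 50 after the gene's start and is written 5′ to 3′ along the gene's strand, with CG dinucleotides in capitals.
Cyba, chr8:122432891-122433190, minus strand: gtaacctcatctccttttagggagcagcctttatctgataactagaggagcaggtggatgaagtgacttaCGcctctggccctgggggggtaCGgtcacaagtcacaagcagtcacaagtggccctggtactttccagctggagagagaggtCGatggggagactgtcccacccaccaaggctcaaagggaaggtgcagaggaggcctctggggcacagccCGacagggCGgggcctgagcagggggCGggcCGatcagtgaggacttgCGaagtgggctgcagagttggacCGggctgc
Mvd, chr8:122443373-122443672, minus strand: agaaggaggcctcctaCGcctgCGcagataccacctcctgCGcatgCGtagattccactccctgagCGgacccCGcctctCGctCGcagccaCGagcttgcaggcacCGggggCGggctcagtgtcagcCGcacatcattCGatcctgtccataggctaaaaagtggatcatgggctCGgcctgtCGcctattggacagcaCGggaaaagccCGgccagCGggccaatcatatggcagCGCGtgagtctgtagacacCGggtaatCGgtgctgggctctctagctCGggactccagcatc
Gm51557, chr8:122437234-122437533, plus strand: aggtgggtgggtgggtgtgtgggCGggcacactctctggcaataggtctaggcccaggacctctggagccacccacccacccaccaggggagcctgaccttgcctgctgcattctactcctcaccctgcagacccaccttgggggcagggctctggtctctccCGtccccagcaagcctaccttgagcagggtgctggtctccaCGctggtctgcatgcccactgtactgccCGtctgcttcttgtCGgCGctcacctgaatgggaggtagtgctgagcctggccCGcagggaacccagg
Aprt, chr8:122576858-122577157, minus strand: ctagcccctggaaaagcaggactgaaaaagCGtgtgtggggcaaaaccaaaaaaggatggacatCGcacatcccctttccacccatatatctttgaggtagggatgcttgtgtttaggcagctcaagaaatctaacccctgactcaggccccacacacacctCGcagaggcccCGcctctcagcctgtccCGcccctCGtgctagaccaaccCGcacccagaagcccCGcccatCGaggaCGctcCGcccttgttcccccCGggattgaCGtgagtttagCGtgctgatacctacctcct

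No base of the Cyba or Mvd window lay under a peak in any library, and the nearest region was 747 bp from the Cyba window and 5639 bp from the Mvd window. The Gm51557 window lay under no KO peak and wholly under a peak in both flox libraries (300 and 300 bp). Gm51557 is a long non-coding RNA gene inside Mvd, with another promoter window in the table that had no peak. In the Aprt window, 0 bp were called in both KO libraries and 201 and 127 bp in the flox libraries. These were the only 2 of 15 promoter windows of the stretch with a peak in any library, against 14.2% of 32851 windows in the genome. Over the genome 0.566% of windows had a peak in both flox libraries alone and 0.368% in both KO libraries alone, from which nothing is read because the stretch was chosen on this contrast.

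The windows held 9 CG in Cyba, 23 in Mvd, 7 in Gm51557 and 14 in Aprt, against a median of 7 over all windows. The core of the RUNX motif (TGTGGT), bound by the AML1 part of AML1-ETO, the purine-rich GAGGAA found in many Ets factor sites, and TCACNCCAC, a form of the sterol regulatory element, were searched on both strands. None of these 3 was found in the 4 printed windows. Among the other windows of the stretch, TGTGGT was in the second window of Gm51557 and in that of Gm34847, GAGGAA in those of Il17c and Gm34847, and TCACNCCAC in one of Rnf166. Over all promoter windows, 16.8% held TGTGGT, 28.3% held GAGGAA and 1.24% held TCACNCCAC.

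The stretch had fewer called regions in KO than in flox. KO replicates 1 and 2 had 7 and 8 regions, against 15 and 17 regions in flox replicates 1 and 2. Called length was 7840 and 7354 bp in the KO libraries and 17244 and 19572 bp in the flox libraries. Each KO value was under each flox value. Scaled to the same genome-wide total, the KO mean was 41.6% of the flox mean (log2 ratio -1.26).

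Of the 20 regions, 5 were flox-only and 0 were KO-only (a peak in each KO library and none in flox). Over the genome 2.96% of regions were flox-only and 3.00% KO-only, a background from which nothing is read here because the stretch was chosen on this contrast. Another 6 regions were called in all 4 libraries, 2 in both flox libraries and 1 KO library, and 7 in 1 library alone, of which 6 were flox. Over the genome 39.5% of regions were called in all 4 libraries. There, 28006 of 174070 were called in 3 libraries and 47485 in 1 alone, of which 23834 were flox. In the flanks 11 regions were called in 1 library alone, of which 10 were flox. Nothing is read from these counts either. Of the 20 regions, 17 overlapped a protein-coding gene, all 5 flox-only ones among them, against 45 of 64 in the flanks. The stretch overlaps 14 protein-coding genes, the left flank 5 and the right flank 4. The share of regions in genes over the genome was not computed, so nothing is read from these overlaps. The flox-only count was 9 without flox replicate 1, 2 with only peaks scored at least 100, and 1 when each list was limited to its 50000 highest scores. Without KO replicate 1, 1 region was KO-only, the one in Piezo1 called in KO replicate 2 alone. With a library left out, 1 library stands for its genotype, so the definition is looser and counts can rise for that reason.

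**Figure D1:**
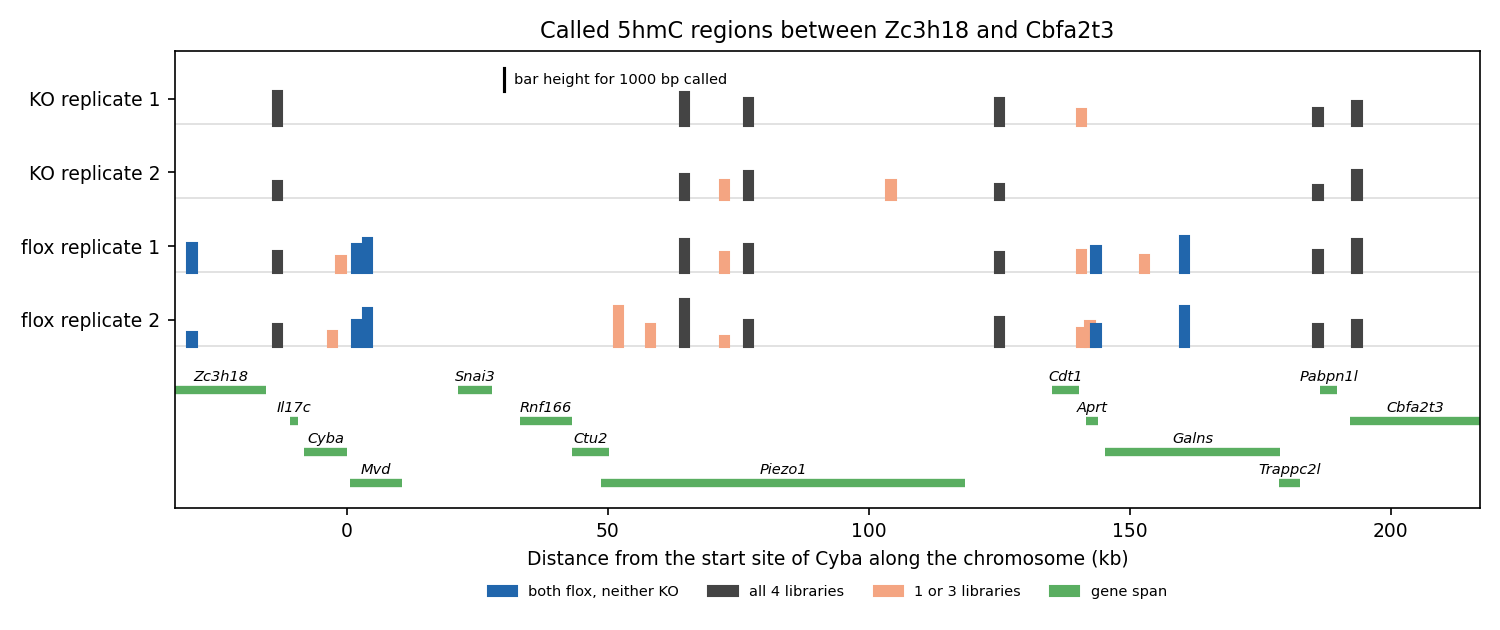
Map of the 20 regions by distance from the start site of Cyba (kb), with 1 row per library (KO above flox) and bar height giving called bp, bars being drawn at 1 fixed width. Green lines are the spans of the 14 protein-coding genes. The 5 flox-only regions (blue) fall inside Mvd next to Cyba, in Zc3h18, over Aprt and in Galns.

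Around Cyba, the flox-only regions lay upstream of its start. Cyba (122424771 to 122432940) is on the minus strand, so its upstream side is the neighbouring gene Mvd (122433596 to 122443422). The flox-only region at 122434155 to 122435415, inside Mvd, started 1215 bp upstream of the Cyba start. It held 0 and 0 bp in KO and 1239 and 1157 bp in flox. The next, at 122436087 to 122437734, also inside Mvd and over the start of Gm51557, held 0 and 0 bp in KO and 1507 and 1648 bp in flox. Both regions lay wholly within the span of Mvd.

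The body of Cyba itself had no region called in more than 1 library. A peak at 122429792 to 122430465 was called in flox replicate 2 alone (674 bp), and one at 122431397 to 122432144 in flox replicate 1 alone (748 bp). At 54.98 and 56.04 they scored near 50, the lowest score in the lists. On the downstream side of Cyba, the region at 122418867 to 122420340, between Zc3h18 and Il17c, was called in all 4 libraries, with 1474 and 811 bp in KO and 955 and 983 bp in flox. At the left edge of the stretch, inside Zc3h18, a nuclear zinc finger gene of RNA processing, the flox-only region at 122402598 to 122403889 held 0 and 0 bp in KO and 1292 and 658 bp in flox.

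From the end of the Mvd regions, 46387 bp followed without a peak in any library. This gap holds the whole spans of Snai3, of the Snail transcription factor family, of the ubiquitin ligase gene Rnf166, and of Ctu2, a gene of tRNA thiolation.

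Piezo1 (122481698 to 122551329), which encodes a mechanosensitive cation channel, held 6 regions, none of them flox-only or KO-only as defined above. The region at 122496356 to 122498830 was called in all 4 libraries, with 1443 and 1105 bp in KO and 1473 and 2054 bp in flox. So was that at 122509207 to 122510628, with 1202 and 1221 bp in KO and 1239 and 1167 bp in flox. Between them, 122504827 to 122505730 was called in KO replicate 2 (820 bp) and in flox replicates 1 and 2 (904 and 480 bp). Single-library peaks stood at 122484122 to 122485856 (1735 bp) and 122490653 to 122491619 (967 bp) in flox replicate 2, and at 122536794 to 122537640 (847 bp) in KO replicate 2. The last was the only region of the stretch called in a KO library without a flox library. Beyond Piezo1, a region at 122557321 to 122558601, over the non-coding gene Gm34847, was called in all 4 libraries, with 1180 and 670 bp in KO and 893 and 1281 bp in flox.

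A second group of flox-only regions lay over Aprt, the adenine salvage enzyme gene, and Galns. The region at 122575879 to 122577058, across the Aprt start, held 0 and 0 bp in KO and 1180 and 985 bp in flox. Just before it, a peak at 122574745 to 122575834 was called in flox replicate 2 alone (1090 bp). Between Cdt1, a replication licensing gene, and Aprt, 122573146 to 122574129 was called in KO replicate 1 (734 bp) and in flox replicates 1 and 2 (984 and 815 bp).

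Inside Galns (122578237 to 122611701), the flox-only region at 122592568 to 122594330 held 0 and 0 bp in KO and 1586 and 1763 bp in flox. A second region, at 122585326 to 122586117, was called in flox replicate 1 alone (792 bp). No KO library had a called base within the span of Galns, nor within that of Mvd or Cyba.

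Towards the right edge the libraries had the same regions. Over the 3′ end of Pabpn1l, which encodes a poly(A)-binding protein, 122618479 to 122619523 was called in all 4 libraries, with 768 and 602 bp in KO and 996 and 977 bp in flox. In Cbfa2t3, a corepressor gene of the ETO family from which AML1-ETO takes its partner, 122625713 to 122627212 held 1039 and 1278 bp in KO and 1456 and 1138 bp in flox. The first regions outside the stretch were 122383176 to 122384744 on the left, called in all 4 libraries with 1153 and 1391 bp in KO and 1201 and 1525 bp in flox, and 122650107 to 122650757 on the right, called in flox replicate 1 alone (651 bp).

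Regions called in all 4 libraries had similar lengths and scores in both genotypes. The 6 regions summed to 7106 and 5687 bp in KO, against 7012 and 7600 bp in flox. The authors' peak score, 10 times the negative log10 of the peak's p-value within its own library, had a median of 205 over 12 KO peaks and 212 over 12 flox peaks. These regions made up 90.6% and 77.3% of called length in KO and 40.7% and 38.8% in flox. The 5 flox-only regions made up 39.5% and 31.7% of called length in flox and summed to 6804 and 6211 bp there.

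Flox-only regions had a lower median score than the shared regions, 93.4 over 10 flox peaks. The region across the Gm51557 start had the highest, 158.51 and 314.44, above 78.6% and 95% of peaks in the lists of flox replicates 1 and 2. In Galns the scores were 57.22 and 119.74, above 10.8% and 66.1% of the same lists. Peak scores depend on sequencing depth, which was unknown.

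**Figure D2:**
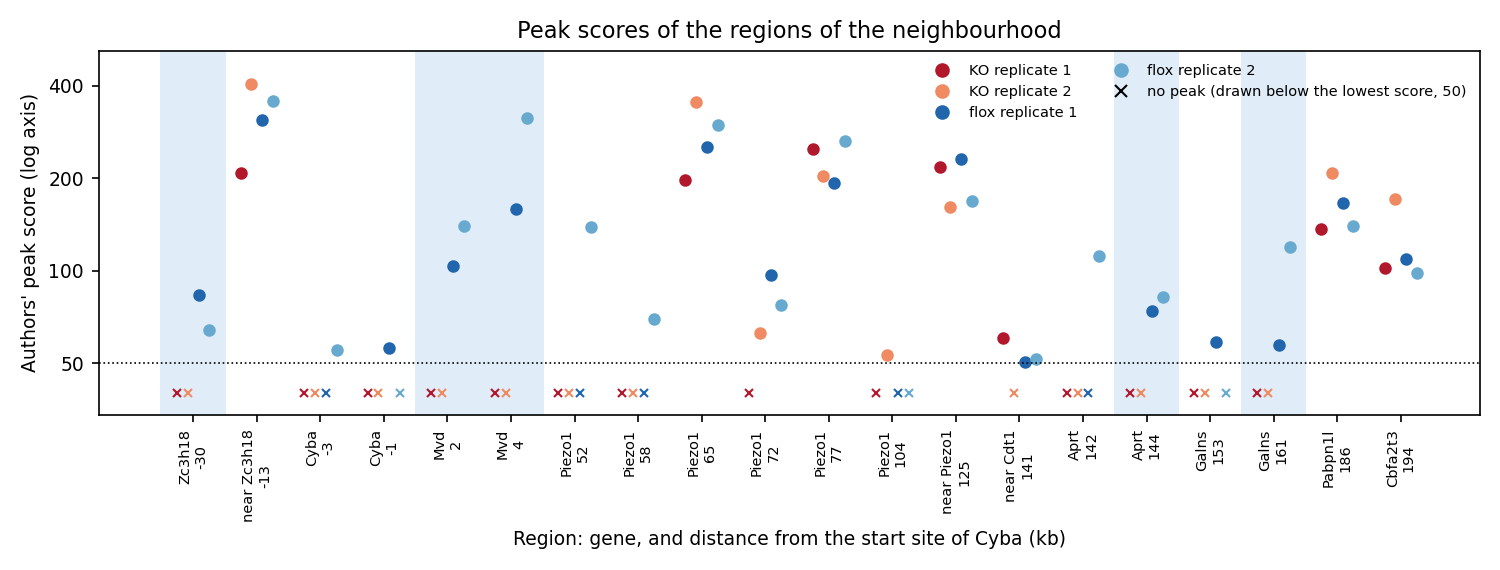
Authors' peak score (log axis) of each of the 20 regions in chromosomal order, with KO libraries in reds left of flox libraries in blues, and crosses below the lowest score of 50 where no peak was called. In the shaded flox-only regions the flox scores run from 57.22 to 314.44. In the regions called in all 4 libraries KO and flox scores overlap.

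In bins of 50 kb, the difference was largest in the parts with Cyba and Mvd and with Aprt and Galns. The first bin of the stretch held 1474 and 811 bp in KO and 5741 and 5120 bp in flox. The fourth, from the right of Piezo1 into Galns, held 1914 and 670 bp in KO and 5435 and 5934 bp in flox. In both bins each KO library lay below each flox library. The bin over the middle of Piezo1 held 1202 and 2888 bp in KO and 2143 and 1647 bp in flox, and these ranges overlapped. The second bin rested on flox replicate 2, with 1443 and 1105 bp in KO and 1473 and 4756 bp in flox. The last bin held 1807 and 1880 bp in KO and 2452 and 2115 bp in flox. In the second and last bins, and in some bins of both flanks, each KO library also lay below each flox library in called bp. Scaled to the same genome-wide total, the second bin had KO replicate 1 above flox replicate 1 (1456 and 1446 bp).

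**Figure D3:**
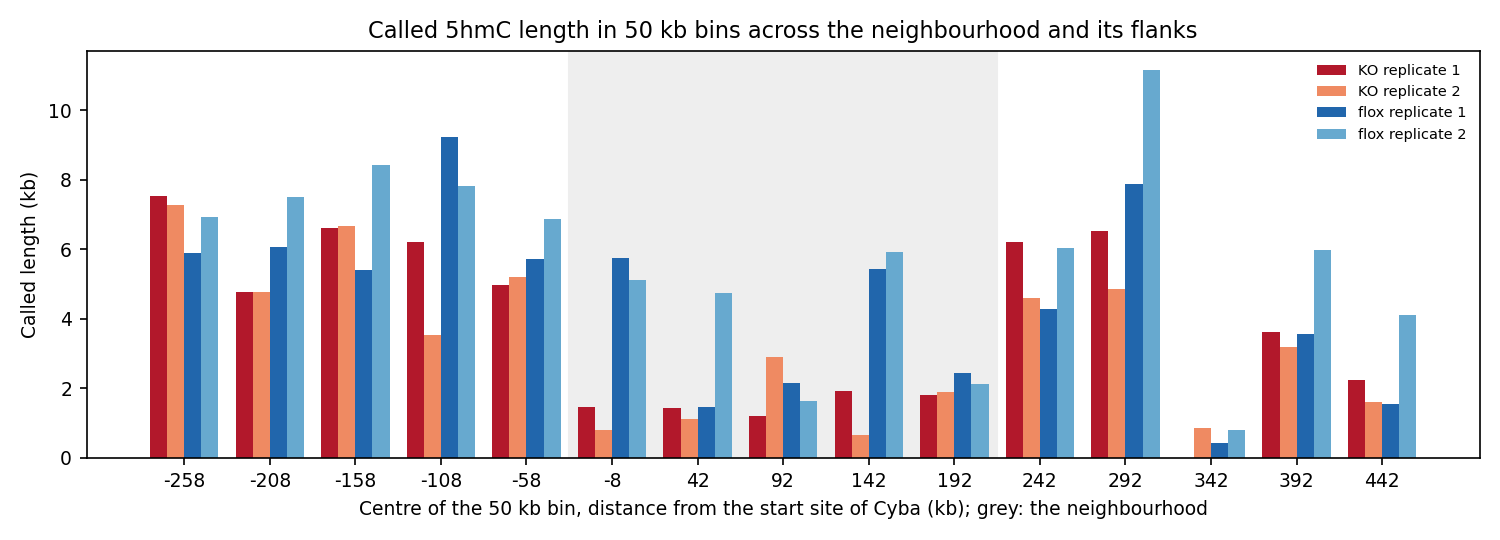
Called length (kb) in 50 kb bins across the stretch (grey) and its flanks, by distance of the bin's centre from the Cyba start, with bars for KO replicates 1 and 2 left of flox replicates 1 and 2. The bins with Cyba and Mvd and with Aprt and Galns show low red and high blue bars.

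Per gene, called length was taken over the gene with 5 kb at both ends. Around Cyba it was 570 and 172 bp in KO and 3972 and 3645 bp in flox (371 ± 281 and 3808 ± 231 bp, SD, n = 2 each, log2 difference -2.33, SE 0.33, on the log2 scale of scaled bp + 500). This interval takes in both flox-only regions of Mvd and an end of the region beside Il17c. Mvd had 0 and 0 bp in KO and 3494 and 3479 bp in flox, and no ratio is given because both KO libraries stood at 0. Galns had 729 and 0 bp in KO and 4451 and 4653 bp in flox (log2 difference -2.68, SE 0.47). Part of the flox length lay over Aprt, and all of the KO length lay between Cdt1 and Aprt. The log2 difference at Galns was -3.33 without KO replicate 1, -2.03 without KO replicate 2, -1.39 with peaks scored at least 100 and -1.38 with the 50000 highest scores. With 1 KO library at 0, it depended on the added bp, at -4.00 with 100 bp and -1.48 with 2000 bp in place of 500. At all 3 genes the KO values were under the flox values, which their choice implies.

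Neighbouring genes shared some of these regions. Aprt and Cdt1 had the same values, 734 and 0 bp in KO and 2164 and 2890 bp in flox (log2 difference -1.93, SE 0.50, for both), because their extended intervals hold the same peaks. The difference was -2.58 without KO replicate 1 and -1.27 without KO replicate 2. Piezo1 had 2645 and 3993 bp in KO and 3616 and 6403 bp in flox (-0.49, SE 0.34), and the groups overlapped. Cbfa2t3 had 8301 and 6833 bp in KO and 6762 and 8195 bp in flox (0.03, SE 0.19). Il17c, a cytokine gene, had 1474 and 811 bp in KO and 955 and 983 bp in flox, all of it from the shared region on its left.

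Smaller differences stood at Zc3h18 (-0.45), Trappc2l, a gene of vesicle tethering (-0.32), and Pabpn1l (-0.23). Snai3, Rnf166 and Ctu2 had under 500 bp on average and were left out of the fit. Of the 8 genes fitted in the stretch other than Cyba, Mvd and Galns, 5 had both KO values under both flox values, against 20.7% of 14162 genes in the genome, and 0 had both KO values above, against 14.6%. Neighbouring genes share peaks and lie in a stretch chosen on this contrast, so nothing is read from these shares. Limma called 0 of 14162 genes (0%) at an adjusted p under 0.05, against 869 genes at an unadjusted p under 0.05.

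**Figure D4:**
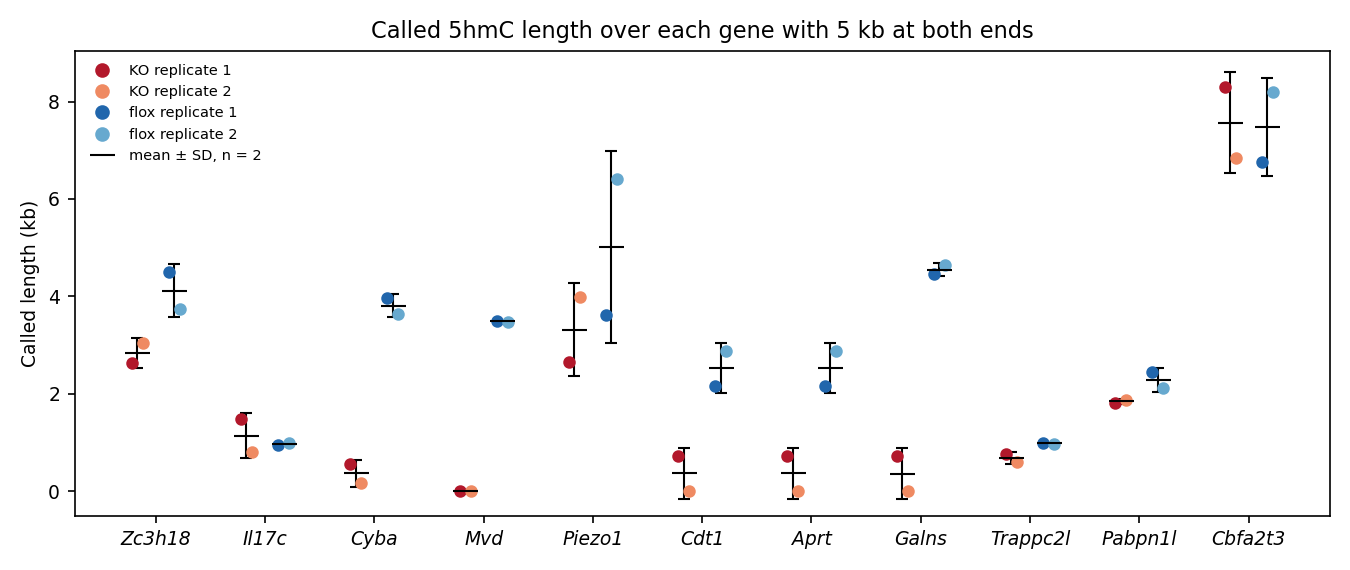
Called length (kb) over each of the 11 fitted genes of the stretch with 5 kb at both ends, in chromosomal order, with points for libraries (KO left of flox) and bars for the mean ± SD (n = 2). At Cyba, Mvd, Cdt1, Aprt and Galns the KO points sit below 1 kb and the flox points above 2 kb. At Piezo1 and Cbfa2t3 they overlap.

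Both flanks had more called length than the stretch in every library. The left flank held 30088 and 27451 bp in KO and 32317 and 37560 bp in flox. The right flank held 18609 and 15121 bp in KO and 17703 and 28105 bp in flox. Over the 4 libraries, called bp per kb in the stretch stood below that of both flanks together by a log2 difference of -1.11 ± 0.55 (SD, n = 4), given with no test because the KO values entered the choice of the stretch. The difference was -1.63 and -1.53 in the KO libraries and -0.54 and -0.75 in the flox libraries. The value was -0.67 with flanks of 500 kb. The flanks were dense, the left with more mean called length than 98.3% of windows of this size in the genome and the right with more than 88.7%, while the stretch had more than 68.5%. In flox replicate 1 the stretch and the right flank were close, at 17244 and 17703 bp.

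The flanks showed a smaller genotype difference of the same sign, which did not pass the test. In windows of 250 kb over the genome, the left flank differed by -0.26 (SE 0.11, limma adjusted p = 0.675), and both KO values were under both flox values, as in 17.3% of windows (19.6% had both above). The left flank differed by -0.13 without flox replicate 2 and by -0.39 without flox replicate 1. The right flank differed by -0.39 (SE 0.18, limma adjusted p = 0.733) with overlapping groups, and by -0.04 without flox replicate 2. The stretch itself differed by -1.21 (SE 0.18), and 13 of 9951 windows, the stretch among them, had a value this low or lower. Windows also differed as much in the other direction, the highest by 2.2 to 2.3. Nothing is read from this rank because the stretch was chosen on this contrast. The log2 ratio of KO to flox in the stretch minus that in both flanks together was -0.93.

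Limma called 1 of 9951 windows (0.0100%) at an adjusted p under 0.05, against 672 at an unadjusted p under 0.05. This window was the stretch itself, whose edges were set with the contrast known, so its p is not read as a test. The stretch was not called when any 1 of the 4 libraries was left out. The count was then 0 without KO replicate 1 or flox replicate 2, and 1, another window, without KO replicate 2 or flox replicate 1. With the windows shifted by a part of their width it was 0.

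**Figure D5:**
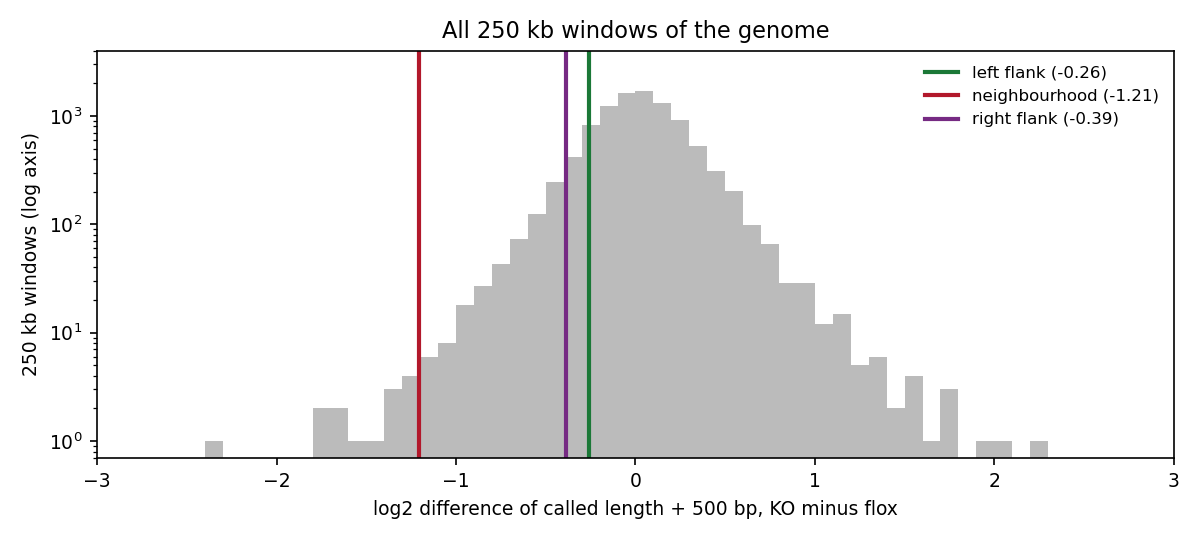
Distribution of the log2 difference in called length (KO minus flox, scaled bp + 500) over 9951 windows of 250 kb, with the number of windows on a log axis. Lines mark the left flank (-0.26), the neighbourhood (-1.21) and the right flank (-0.39).

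Of the 64 flank regions, 4 were flox-only (6.25%) and 0 were KO-only, against 2.96% and 3.00% over the genome. Flox replicate 2 had a peak in 58 of the 64, flox replicate 1 in 47, and KO replicates 1 and 2 in 45 and 40. On the left, both flox-only regions lay in Zfpm1, which encodes a cofactor of GATA transcription factors. The region at 122312788 to 122314314 held 0 and 0 bp in KO and 1383 and 1527 bp in flox, and that at 122321139 to 122322439 held 0 and 0 bp in KO and 1028 and 1301 bp in flox. Zfpm1 as a whole had 8664 and 5840 bp in KO and 10236 and 11658 bp in flox (log2 difference -0.57, SE 0.22, limma adjusted p = 0.807). On the right, the flox-only regions lay between genes, 9253 and 18274 bp from Cbfa2t3. Flank genes that do not reach into the stretch were also compared by called length, taken over their whole spans. Those with most were Zfp469 on the left (-0.03, limma adjusted p = 0.982) and Ankrd11, a chromatin regulator gene, on the right (-0.52, limma adjusted p = 0.842). Cbfa2t3, which crosses the right edge of the stretch, held more than Ankrd11 in every library. The span of Zfp469 begins before the left flank, at base 122043123, so its value also takes in peaks outside the flank. Ankrd11 runs past the end of the flank to base 123042284, and its regions inside the flank were called in flox replicate 2 alone (949 and 1056 bp).

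Genes elsewhere in the genome that work with Cyba, Mvd or Galns, or are related to them, were taken from 3 lists. Of these genes, 0 passed the test. Over all 14162 genes tested, 7730 had less called length in KO and 6432 more, with a median log2 difference of -0.04. Of 7 genes of the phagocyte NADPH oxidase other than Cyba, 6 were tested, with 3 lower and 3 higher values in KO (median 0.01), and 0 passed in either direction. The GTPase gene Rac1 stood at 0.70 (limma adjusted p = 0.867) and Cybc1, a chaperone of the oxidase, at 0.14 (limma adjusted p = 0.953). Rac1 had 2762 and 2047 bp in KO and 2536 and 563 bp in flox, so its groups overlapped, as did those of Cybc1. Cybb, the catalytic partner of Cyba, had no called base in any library.

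Of 13 genes of mevalonate and sterol synthesis other than Mvd, 7 were tested, with 3 lower and 4 higher values in KO (median 0.18), and 0 passed. Lanosterol synthase, Lss, stood at -0.87 (limma adjusted p = 0.867), with 840 and 0 bp in KO and 973 and 1028 bp in flox. Ggps1, which makes geranylgeranyl diphosphate, stood at 0.72 (limma adjusted p = 0.884) and the kinase gene Pmvk, whose product acts just before Mvd, at 0.39 (limma adjusted p = 0.872). Ggps1 had 1021 and 903 bp in KO and 0 and 1082 bp in flox. Pmvk had 3618 and 3634 bp in KO and 1935 and 3640 bp in flox, so at both genes the groups overlapped.

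The list for lysosomal glycosaminoglycan breakdown and related sulfatases held 14 genes other than Galns, of which 11 were tested. They had 7 lower and 4 higher values in KO (median -0.12), and 0 passed. Hexa, a beta-hexosaminidase subunit gene, had 0 and 2317 bp in KO and 1998 and 3282 bp in flox (-1.37, limma adjusted p = 0.845), so its groups overlapped. Arsa, another sulfatase gene, stood at 0.21 (limma adjusted p = 0.926). The hyaluronidase gene Hyal1 had 1168 and 2156 bp in KO and 0 and 0 bp in flox, with 1 KO-only region in its span, and did not pass (limma adjusted p = 0.773).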

How the data were processed

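5hmC immunoprecipitation libraries of 2 KO and 2 flox samples were used, grouped by sample titles. IgG and input were not used. Per the submitters' processing notes, the tools were Bowtie, CASAVA 1.8 and MACS 1.4 and the build GRCm38 (mm10). The settings of peak calling, and the control, are not given there. The authors deposited 1 peak list per library with start, end, a score and a p-value per peak. Each deposited score was within 0.02 of 10 times the negative log10 of its p-value. Scores describe or filter peaks within a list and depend on depth, which was unknown.

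Peaks sharing 1 bp were merged into regions (checked with bedtools 2.31.1). Coordinates count from 1. Gene spans and promoter sequences came from RefSeq (GRCm38.p6, 21887 protein-coding genes). Called bp were scaled to the same total per library. Genes and 250 kb windows with a mean of at least 500 bp entered limma 3.58.1 (two-sided, with trend and robust options, in R 4.3.3) on the scale log2(bp + 500), with Benjamini-Hochberg adjustment over all features, after checks on simulated data. Windows were placed so that the stretch is 1 of them. Other software was Python 3.11.15, matplotlib 3.10.9, pandas 2.3.3 and numpy 2.4.6. The text names all protein-coding genes of the stretch, flank genes with regions of 1 genotype or most called length, and the 2 lowest and 2 highest tested genes of 3 lists. One gene that this rule names is not reported here. Members, lists and tests were chosen with earlier results of these data known. Alternatives were score filters, pseudocounts, scaling, intervals, merging rules, leaving out each library, and a replicate block.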

Additional observations from a re-analysis of the deposited data

How the results depend on the processing

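The direction of the difference in called length of the stretch was fixed by its choice, so its size alone is given. The log2 ratio of KO to flox was -0.90 with only peaks scored at least 100 and -0.91 with the 50000 highest scored peaks. It ran from -1.37 to -1.15 with each library left out. Relative to the flanks the same values were -0.56, -0.65 and -1.05 to -0.84. The flox-only count was 2, 1 and 6 to 9 in these settings, and the KO-only count 0 to 1 with a library left out. With a library left out, these classes rest on 1 library of that genotype and are looser.

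Limma called 0 genes in every setting. The count of windows was 0 with peaks scored at least 100, with the 50000 highest scored peaks, without the 10% lowest scored peaks and with shifted windows, and 0 to 1 with a library left out, the stretch not being called in any of the 4 cases. The stretch was called, as the only window, with pseudocounts of 100 and 2000 bp, without the minimum of 500 bp and with called bp not scaled. The replicate block gave 29 windows, 28 of them lower in KO and the stretch among them, and 0 genes. Nothing is read from these calls of the stretch, whose edges were set with the contrast known. Replicate numbers were not taken to pair the libraries, and the block is given as an alternative alone. The log2 density of the stretch against its flanks was -0.67 with flanks of 500 kb, -0.80 with the 50000 highest scored peaks, -0.84 with peaks scored at least 100, and -1.30 to -0.94 with a library left out.

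The difference at Cyba ran between -3.18 and -1.29 and that at Galns between -4.00 and -1.38 over the alternatives, with signs that their choice fixed. Both were lowest with a pseudocount of 100 bp. These genes changed sign in some setting. Zc3h18 was 0.16 with the 50000 highest scored peaks, Il17c between -0.16 and 0.44 with a library left out (-0.16 without KO replicate 1), and Pabpn1l 0.16 with peaks scored at least 100. Cbfa2t3 was -0.15 with peaks scored at least 100, -0.088 with the 50000 highest scored, -0.052 without the 10% lowest scored, and between -0.12 and 0.18 with a library left out. The cause was not tested. Unknown depth limits what the absence of a peak can say.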

Other observations

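Windows of the genome with many genes, as this stretch with its 14 protein-coding genes, stood lower in KO than windows with few. The median log2 difference in called length was 0.08 over 2497 windows with 0 protein-coding genes, 0.02 over 5670 windows with 1 to 4, -0.04 over 1390 windows with 5 to 9, and -0.10 over 394 windows with 10 or more. Both KO values were under both flox values in 10.9%, 17.1%, 25.5% and 32.5% of these windows. The stretch, at -1.21, stood below the first quartile of the windows with 10 or more genes (-0.22). Nothing is read from its place because it was chosen on this contrast. The windows share the same 4 libraries, so these values are a description with no test. Promoter windows with a peak in any library held a median of 9 CG, and those with no peak 7.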
